A study of Mus musculus with 6 samples.

Results

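Cadherins, claudins, gap junction connexins and their scaffold partners were followed in 6 total-liver RNA-seq libraries of mice with DDC injury. The genes were chosen by name from the deposited table, as rows whose symbol starts with Cldn, Cdh, Cdhr, Pcdh, Tjp, Gja, Gjb or Gjc, together with Ocln and F11r. This gave 31 of 14499 rows, made up of 10 claudins, 5 cadherins, 2 cadherin-related genes, 4 protocadherins, 5 connexins and 5 other tight junction genes. The tested livers carried a hepatocyte-specific knockout of Arid1a (Arid1a_KO_DDC, 3 libraries), which encodes a subunit of a SWI/SNF chromatin remodeller that binds DNA, and the others were wild type (WT_DDC, 3 libraries). All mice were on a mixed C57Bl/6; 129Sv background, were 10 weeks old and had 2 weeks of injury with DDC, a porphyrinogenic compound that brings a ductular reaction. No uninjured liver was among the samples analysed here, and the labels give no Cre driver. They do not say that libraries are from different mice either, and the p-values reflect only how far these libraries vary.

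Cell junctions hold epithelial sheets together and separate the bile canaliculus from the blood side of the hepatocyte. Cadherins bind the same or a related cadherin on the neighbouring cell and are tied to actin through catenins in the adherens junction. Claudins and occludin form the strands of the tight junction and are anchored by the zonula occludens scaffolds, while connexins form channels through which hepatocytes share small metabolites and calcium signals. The cadherin-related genes of the brush border link microvilli to each other.

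The promoters of 4 members are shown because the called genes are among them, each beside a relative that did not differ in the same way. Cdhr2 and Cdhr5 encode the 2 brush border cadherins, and Cldn4 and Cldn3 are neighbours on chromosome 5. Each window runs from 250 bases before to 50 bases after the start in RefSeq, on GRCm38.p6, and is written 5′ to 3′ on the gene's strand. The windows are chr13:54701213-54701512 on the plus strand for Cdhr2, chr7:141276737-141277036 on the minus strand for Cdhr5, chr5:134946885-134947184 on the minus strand for Cldn4 and chr5:134985964-134986263 on the plus strand for Cldn3. Capitals mark matches on either strand to GGAATG (the core bound by TEAD factors, the partners of YAP), GTTAAT (part of the site of HNF1 factors), CAAAGTCCA (an HNF4 site) or CAGGTG (an E-box bound by Snail and Zeb repressors). In these 4 windows no matches overlapped.
Cdhr2: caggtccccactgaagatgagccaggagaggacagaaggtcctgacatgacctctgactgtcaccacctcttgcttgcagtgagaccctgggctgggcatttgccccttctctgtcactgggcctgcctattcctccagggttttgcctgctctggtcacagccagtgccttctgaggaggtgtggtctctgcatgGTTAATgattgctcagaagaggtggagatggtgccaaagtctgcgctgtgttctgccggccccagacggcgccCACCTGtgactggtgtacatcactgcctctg
Cdhr5: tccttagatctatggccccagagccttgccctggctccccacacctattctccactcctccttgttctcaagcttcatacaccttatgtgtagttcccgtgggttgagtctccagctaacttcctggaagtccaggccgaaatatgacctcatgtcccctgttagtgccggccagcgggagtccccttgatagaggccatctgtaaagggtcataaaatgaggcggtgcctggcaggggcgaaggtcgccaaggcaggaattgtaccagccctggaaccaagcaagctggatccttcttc
Cldn4: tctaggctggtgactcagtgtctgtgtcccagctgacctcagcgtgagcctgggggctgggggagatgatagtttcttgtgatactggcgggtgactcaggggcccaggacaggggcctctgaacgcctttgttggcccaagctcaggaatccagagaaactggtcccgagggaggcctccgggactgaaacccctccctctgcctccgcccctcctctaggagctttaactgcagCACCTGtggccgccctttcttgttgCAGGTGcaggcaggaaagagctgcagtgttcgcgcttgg
Cldn3: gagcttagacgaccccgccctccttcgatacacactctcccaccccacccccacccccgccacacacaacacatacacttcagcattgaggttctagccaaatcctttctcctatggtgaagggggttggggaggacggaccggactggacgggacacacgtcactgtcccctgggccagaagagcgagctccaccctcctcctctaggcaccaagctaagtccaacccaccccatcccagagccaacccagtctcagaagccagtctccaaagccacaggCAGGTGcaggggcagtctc
The Cdhr2 window held GTTAAT on the plus strand and CAGGTG on the minus strand, whereas that of Cdhr5 held none of the 4 motifs. The Cldn4 window held CAGGTG once on each strand, and the Cldn3 window held it once. After a filter by chromosome, 21 members had a RefSeq window, with 31 windows in all. Some genes have several starts whose windows can overlap. CAGGTG was in 13 of these 31 windows (41.9%), against 20.2% of all 32851 windows, and GGAATG was in 6 (19.4%), against 14.7%. Unlike the member windows, the 32851 windows were not filtered by chromosome. GTTAAT was in 4 member windows (12.9%), against 7.1%, and CAAAGTCCA in 0, against 0.475%. These matches describe letters and not binding. Cdh2, Pcdh1, Pcdh12, Pcdhga8 and Pcdhgc3 were left out by the filter by chromosome, so whether RefSeq holds windows for them is not shown. Other members without a window included Cdh1, Cdh5, Cdh13 and Cdh17.

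Values are FPKM, fragments scaled to gene length and to library size, as computed by the authors. The number of fragments behind them is unknown, and steps between low values placed the other 5 libraries at 0.904 to 1.16 times the depth of WT_DDC replicate 1. Between 11280 and 11712 genes per library had at least 1 FPKM. Arid1a itself was at 6.61, 5.01 and 3.81 FPKM in knockout replicates 1, 2 and 3, against 7.85, 5.48 and 5.98 FPKM in wild-type replicates 1, 2 and 3, and the groups overlapped. Since exons outside the deletion and other liver cells also contribute to a gene-level value, the labels are not checked by it. Replicate 1 of both groups stood apart from replicates 2 and 3, with the Y-linked gene Ddx3y at 0.0227 FPKM in the knockout and 0.0527 FPKM in the wild-type library, and at 9.27 to 11.3 FPKM in the other 4 libraries. The labels also give these 2 libraries consecutive library numbers, apart from the consecutive numbers of the other 4, so differences were also taken within each range of library numbers. Y-linked expression and library number split the libraries in the same way, so their parts in these differences cannot be told apart. All levels are from total liver RNA, in which fewer cells of a type and less RNA per cell cannot be told apart.

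The junction genes spanned a wide range of levels per length. Over the 6 libraries 5 members averaged at least 50 FPKM, namely Gjb1, Cldn3, Gjb2, Cdhr5 and F11r. A further 8 averaged 10 to 50 FPKM and 14 averaged 1 to 10 FPKM. The remaining 4, Cdh17, Cldn34c1, Cdh13 and Gjc3, averaged under 1 FPKM. Of the 31 members, 27 reached at least 1 FPKM in at least 3 of the 6 libraries and were tested. Cdhr2 passed this filter through its 3 knockout libraries alone.

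**Figure D1:**
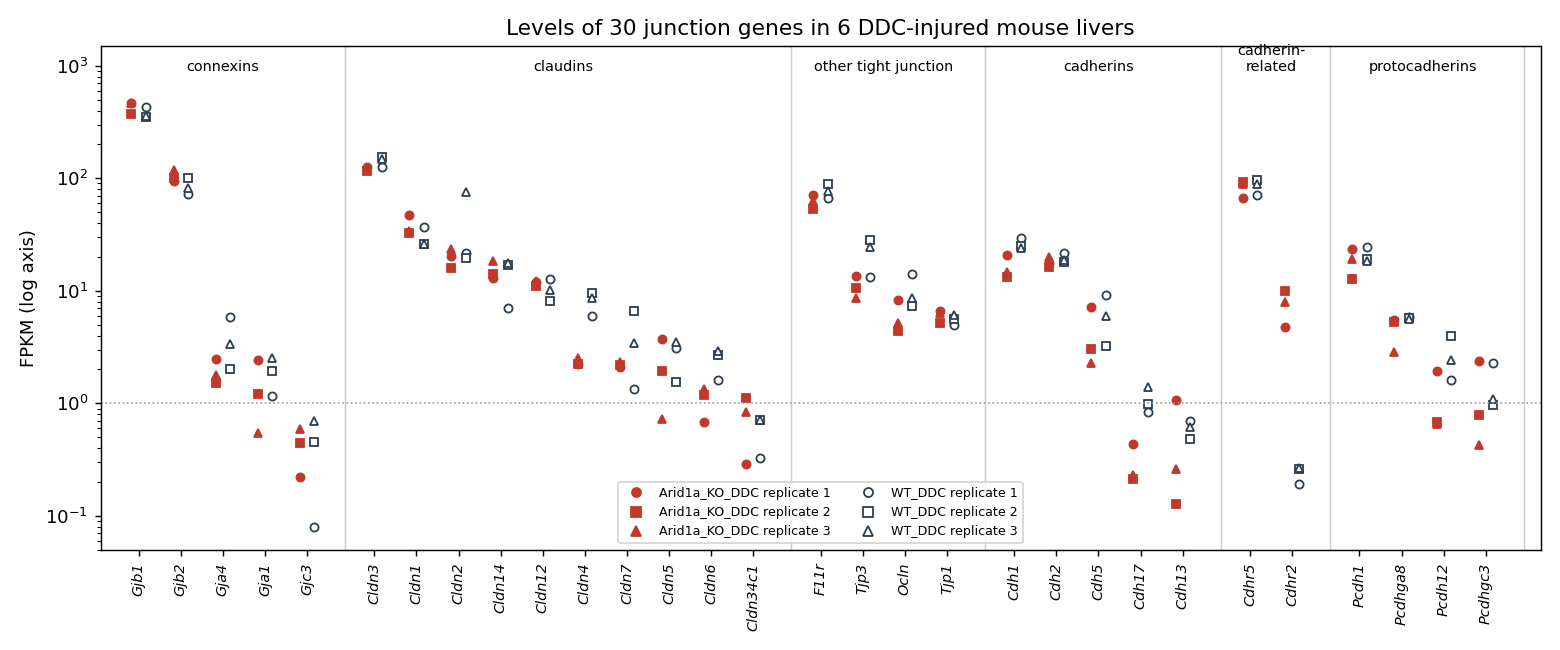
FPKM (log axis) of 30 junction genes by library, ordered by family and mean level. Filled red symbols are the 3 Arid1a_KO_DDC libraries, open symbols the 3 WT_DDC libraries, and the dotted line is 1 FPKM. Gjb1 lay highest, at 354 to 468 FPKM, and the symbols of Cdhr2 and Cldn4 separate most clearly by genotype.

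In knockout livers 1 junction gene passed as higher, the brush border cadherin Cdhr2, and 1 as lower, the tight junction claudin Cldn4. Cdhr2 entered the test through its knockout libraries alone, and the count higher was 0 with no filter and at a filter of 5 FPKM, where Cdhr2 was not tested. The count lower was 0 with no filter and 1 at 5 FPKM. The count of 1 higher among 27 tested members stands beside 0.135% of the 11839 genes tested, and the count of 1 lower beside 0.355% (limma, Benjamini-Hochberg adjusted p under 0.05). At an unadjusted p under 0.05, 1 member was higher, beside 4.65% of all genes tested, and 5 were lower, beside 6.5%. The groups did not overlap for 1 member that was higher in knockout, against a background of 7.09%, and for 5 that were lower, against 9.56%. These included Cldn4, Cdh1, Cldn6 and Pcdhga8. The log2 difference, knockout minus wild type on the log2(FPKM + 1) scale, was negative for 20 of 27 members, against 49.4% of all genes tested. Its median was -0.31 over the members and 0.0034 over all genes tested.

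**Figure D2:**
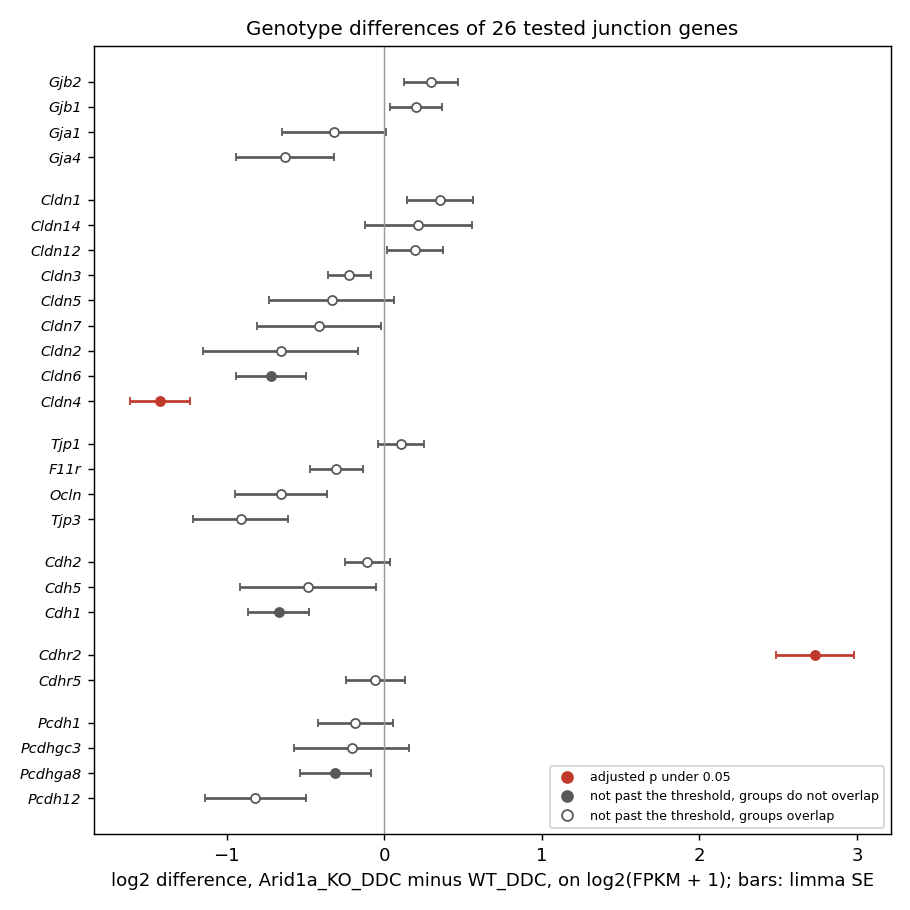
Log2 difference of 26 tested junction genes (Arid1a_KO_DDC minus WT_DDC, log2(FPKM + 1) scale, 3 libraries each), in the order connexins, claudins, other tight junction genes, cadherins, cadherin-related genes and protocadherins. Bars are limma standard errors. Cdhr2 at 2.74 and Cldn4 at -1.42 are the 2 genes past the threshold, and filled grey points are genes whose groups did not overlap.

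Cdhr2 (ENSMUSG00000034918, chromosome 13, 54701461 to 54736662 on GRCm38, plus strand, protein coding) was the only member that passed as higher. This protocadherin sits at the tips of microvilli, where it binds the other brush border cadherin, Cdhr5. Cdhr2 was at 4.74, 9.94 and 7.93 FPKM in knockout replicates 1, 2 and 3, against 0.191, 0.261 and 0.265 FPKM in wild-type replicates 1, 2 and 3. Every knockout library lay above every wild-type library, and the wild-type values kept within a narrow range. The means were 7.53 ± 2.62 FPKM in knockout and 0.239 ± 0.0417 FPKM in wild-type livers (SD, n = 3 each), a 31.6-fold difference of mean FPKM. Cdhr2 differed by 2.74 on the log2 scale (SE 0.25, limma adjusted p = 0.0171). That p is conditional on a filter that Cdhr2 passed only through the group where it is high, and the adjusted p was 0.0582 with no filter. The difference itself was the same with no filter, and its size depended on the pseudocount, being 4.44 with 0.1 and 1.24 with 5 in place of 1. The call was lost without Arid1a_KO_DDC replicate 3 (adjusted p = 0.104), WT_DDC replicate 2 (0.073) or WT_DDC replicate 3 (0.0848), at differences of 2.68, 2.75 and 2.75.

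Cdhr5 (chromosome 7, 141269083 to 141276786), the partner of Cdhr2 in the links between microvilli, was the fourth most abundant junction gene. Cdhr5 was at 66.7, 92.5 and 88.3 FPKM in knockout replicates 1, 2 and 3, against 71.3, 97.2 and 88.5 FPKM in wild-type replicates 1, 2 and 3. The groups overlapped throughout, and replicate 1 was the lowest library of each group. The log2 difference stood at -0.056 (SE 0.19, limma adjusted p = 0.935). Cdhr2 made up 6.64% to 9.7% of the summed FPKM of the pair in knockout libraries, against 0.267% to 0.298% in wild-type libraries. Near Cdhr2, the flanking tested gene Rnf44, an E3 ubiquitin ligase gene ending 7554 bases before it, had a log2 difference of 0.16 (SE 0.15), and Tspan17, a tetraspanin gene starting 52715 bases after it, had 0.50 (SE 0.50).

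Among the claudins, 1 of 9 tested members passed as lower in knockout, beside 0.355% of all genes tested, and 0 as higher, beside 0.135%. Their median log2 difference was -0.33. Cldn4 (ENSMUSG00000047501, chromosome 5, 134945119 to 134946934, minus strand, protein coding) is a claudin of bile duct and other simple epithelia. It was at 2.24, 2.22 and 2.55 FPKM in knockout replicates 1, 2 and 3, against 5.96, 9.64 and 8.62 FPKM in wild-type replicates 1, 2 and 3. The knockout libraries lay close together, and all were below the lowest wild-type library. Cldn4 fell to 2.34 ± 0.187 FPKM in knockout livers, against 8.07 ± 1.90 FPKM in wild-type livers (SD, n = 3 each), a log2 difference of -1.42 (SE 0.19, limma adjusted p = 0.0386). The difference was -1.58 in replicates 2 and 3 alone and -1.10 in replicate 1. The call was lost without Arid1a_KO_DDC replicate 1, 2 or 3 (adjusted p = 0.0737, 0.138 and 0.154), without WT_DDC replicate 2 or 3 (0.13 and 0.157), with a pseudocount of 5 (0.0536) and with no filter (0.11).

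Cldn3, a barrier-forming claudin whose gene lies 39280 bases from that of Cldn4, was the most abundant claudin and made up 55.2% to 58.2% of the summed claudin FPKM in knockout libraries and 49.9% to 62.6% in wild-type libraries. Cldn3 was at 126, 116 and 123 FPKM in knockout replicates 1, 2 and 3, against 125, 154 and 148 FPKM in wild-type replicates 1, 2 and 3. The groups overlapped in replicate 1, and the log2 difference amounted to -0.22 (SE 0.14, limma adjusted p = 0.609). The next tested gene on the other side of Cldn4, Mettl27, had a log2 difference of -0.14 (SE 0.22). Cldn3 overlaps the gene Wbscr25 on the other strand, and the strand use of the libraries is not given in the sources used here.

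Cldn6, a claudin of embryonic epithelia, was low in all libraries, and its groups did not overlap. It was at 0.678, 1.18 and 1.34 FPKM in knockout replicates 1, 2 and 3, against 1.63, 2.71 and 2.92 FPKM in wild-type replicates 1, 2 and 3. The log2 difference of -0.72 (SE 0.22) did not pass over all genes (limma adjusted p = 0.296). Cldn7, a claudin of duct and gut epithelia, was at 2.12, 2.18 and 2.34 FPKM in knockout replicates 1, 2 and 3, against 1.35, 6.58 and 3.41 FPKM in wild-type replicates 1, 2 and 3. The knockout libraries lay within the wild-type range, which spread widely, and the log2 difference came to -0.41 (SE 0.39, limma adjusted p = 0.743). It was -0.0030 without WT_DDC replicate 2 and -0.85 without WT_DDC replicate 1.

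The claudins of the hepatocyte tight junction had mixed signs. Cldn1, a barrier-forming claudin, was at 47.4, 32.8 and 34.3 FPKM in knockout replicates 1, 2 and 3, against 37.0, 26.1 and 26.0 FPKM in wild-type replicates 1, 2 and 3. Its groups overlapped, and the log2 difference stood at 0.35 (SE 0.21, limma adjusted p = 0.595). Cldn2, which forms a pore for cations and water, was at 20.6, 16.1 and 23.5 FPKM in knockout replicates 1, 2 and 3, against 21.6, 19.6 and 75.6 FPKM in wild-type replicates 1, 2 and 3. WT_DDC replicate 3 stood far above the other 5 libraries, and the log2 difference of -0.66 (SE 0.49, limma adjusted p = 0.678) was -0.049 without it. Cldn14, a barrier-forming claudin, was at 13.1, 14.2 and 18.5 FPKM in knockout replicates 1, 2 and 3, against 7.05, 16.9 and 17.6 FPKM in wild-type replicates 1, 2 and 3. Its groups overlapped, WT_DDC replicate 1 was the lowest library, and the log2 difference was 0.22 (SE 0.34), or -0.18 without that library. Cldn12 had a difference of 0.20 (SE 0.18), with 11.1 to 12.3 FPKM in knockout and 8.06 to 12.7 FPKM in wild-type libraries.

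Of the other tight junction genes, 0 of 5 passed in either direction by limma, and 1 had an unadjusted p under 0.05. That gene was Tjp3, a zonula occludens scaffold of epithelia (chromosome 10, 81273207 to 81291581). It was at 13.5, 10.7 and 8.60 FPKM in knockout replicates 1, 2 and 3, against 13.2, 28.4 and 24.7 FPKM in wild-type replicates 1, 2 and 3. The groups were far apart in replicates 2 and 3, and replicate 1 had nearly the same value in both genotypes. The log2 difference amounted to -0.91 (SE 0.30, limma adjusted p = 0.326), made up of -1.38 in replicates 2 and 3 and 0.025 in replicate 1. Tjp3 overlaps Apba3 on the other strand.

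Tjp1, a widely expressed scaffold of the same family, was at 6.66, 5.20 and 6.34 FPKM in knockout replicates 1, 2 and 3, against 4.99, 5.62 and 6.05 FPKM in wild-type replicates 1, 2 and 3. Its groups overlapped and its difference was 0.11 (SE 0.15).

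Ocln, occludin, was at 8.37, 4.44 and 5.18 FPKM in knockout replicates 1, 2 and 3, against 14.1, 7.40 and 8.70 FPKM in wild-type replicates 1, 2 and 3. Replicate 1 was the highest library in each genotype, and the groups overlapped. The log2 difference stood at -0.66 (SE 0.29, limma adjusted p = 0.474), with -0.69 in replicate 1 and -0.64 in replicates 2 and 3. F11r, the junctional adhesion molecule A, was at 70.9, 53.9 and 62.8 FPKM in knockout replicates 1, 2 and 3, against 66.7, 88.2 and 77.6 FPKM in wild-type replicates 1, 2 and 3. Its groups overlapped through replicate 1, with a log2 difference of -0.30 (SE 0.17, limma adjusted p = 0.561). It made up 65.4% to 70.6% of the summed FPKM of these 5 genes in knockout libraries and 61.4% to 63.3% in wild-type libraries.

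**Figure D3:**
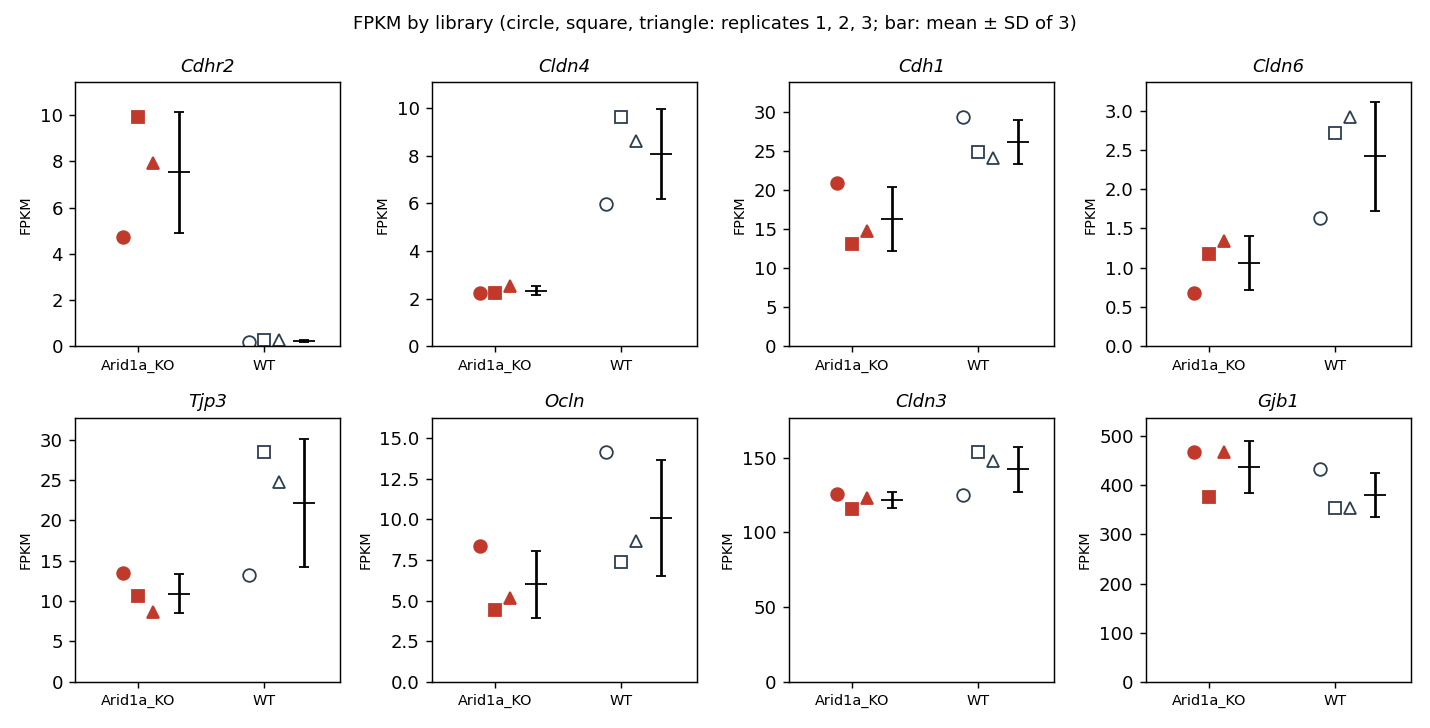
FPKM by library for 8 junction genes, with Arid1a_KO_DDC on the left and WT_DDC on the right of each panel. Circles, squares and triangles are replicates 1, 2 and 3, and bars are the mean ± SD of 3 libraries. Cdhr2, Cldn4, Cdh1 and Cldn6 do not overlap between the groups, whereas in Tjp3 the circles, at 13.5 FPKM in knockout and 13.2 FPKM in wild type, lie together.

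Among the cadherins, 0 of 3 tested members passed in either direction by limma, with 1 at an unadjusted p under 0.05. Cdh1, E-cadherin of epithelial cells including periportal hepatocytes and bile ducts (chromosome 8, 106603351 to 106670246), was that gene. It was at 20.9, 13.1 and 14.8 FPKM in knockout replicates 1, 2 and 3, against 29.4, 24.9 and 24.1 FPKM in wild-type replicates 1, 2 and 3. All knockout libraries were below all wild-type libraries, with Arid1a_KO_DDC replicate 1 the nearest to them. The log2 difference was -0.67 (SE 0.19) and did not pass over all genes (limma adjusted p = 0.27, and 0.0867 to 0.593 over the alternatives). Cdh2, N-cadherin, which hepatocytes express together with E-cadherin, was at 17.6, 16.4 and 20.1 FPKM in knockout replicates 1, 2 and 3, against 21.6, 18.1 and 18.8 FPKM in wild-type replicates 1, 2 and 3. Its groups overlapped, with a log2 difference of -0.11 (SE 0.14, limma adjusted p = 0.819).

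Cdh5, the cadherin of endothelial cells, was at 7.20, 3.03 and 2.27 FPKM in knockout replicates 1, 2 and 3, against 9.13, 3.21 and 5.95 FPKM in wild-type replicates 1, 2 and 3. The groups overlapped, replicate 1 was the highest library of both, and the log2 difference amounted to -0.49 (SE 0.43, limma adjusted p = 0.721). It ranged from -0.88 without Arid1a_KO_DDC replicate 1 to -0.18 without WT_DDC replicate 1. Cldn5, the claudin of endothelial cells, was at 3.72, 1.94 and 0.724 FPKM in knockout replicates 1, 2 and 3, against 3.13, 1.56 and 3.53 FPKM in wild-type replicates 1, 2 and 3. Its groups overlapped, with a log2 difference of -0.33 (SE 0.40), or 0.038 without Arid1a_KO_DDC replicate 3. Over the 14 endothelial markers listed, all 14 were in the table and their summed level was 63.1 to 134 FPKM in knockout libraries, against 95.3 to 139 FPKM in wild-type libraries. Arid1a_KO_DDC replicate 3 had the lowest sum as well as the lowest Cdh5 and Cldn5. Of the 10 tested endothelial markers 9 had a negative difference (median -0.33), against 49.4% of all genes tested, and 0 passed by limma. The part of these markers' cells in the values of Cdh5 and Cldn5 was not tested.

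The connexins were led by Gjb1, the main gap junction protein of hepatocytes, and 0 of 4 tested members passed in either direction by limma, with 0 at an unadjusted p under 0.05. Gjb1 was at 467, 376 and 468 FPKM in knockout replicates 1, 2 and 3, against 432, 354 and 354 FPKM in wild-type replicates 1, 2 and 3. Knockout and wild-type values overlapped. The log2 difference came to 0.20 (SE 0.16, limma adjusted p = 0.704). Gjb2, the other hepatocyte connexin, was at 94.9, 99.6 and 118 FPKM in knockout replicates 1, 2 and 3, against 72.1, 101 and 82.6 FPKM in wild-type replicates 1, 2 and 3. Its groups overlapped as well, with a log2 difference of 0.29 (SE 0.17, limma adjusted p = 0.589). Gjb1 held 78.5% to 82.4% of the summed connexin FPKM in knockout libraries and 77.1% to 84.5% in wild-type libraries.

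The connexins of vessels and other non-hepatocyte cells were low. Gja4, a connexin of arterial endothelium, was at 2.50, 1.51 and 1.80 FPKM in knockout replicates 1, 2 and 3, against 5.89, 2.02 and 3.37 FPKM in wild-type replicates 1, 2 and 3. The groups overlapped through WT_DDC replicate 2, and the log2 difference stood at -0.63 (SE 0.31, limma adjusted p = 0.509). Gja1, the most widely expressed connexin outside the hepatocyte, was at 2.45, 1.20 and 0.545 FPKM in knockout replicates 1, 2 and 3, against 1.17, 1.95 and 2.55 FPKM in wild-type replicates 1, 2 and 3. In replicate 1 the knockout library was the higher one, and among replicates 2 and 3 the knockout libraries were the lower ones. Its groups overlapped, and its log2 difference was -0.32 (SE 0.33), or -0.041 without Arid1a_KO_DDC replicate 3. Gja5, another connexin of arteries, was not analysed here.

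Of the protocadherins, 0 of 4 passed in either direction by limma, and 1 had an unadjusted p under 0.05. All 4 had negative differences, against 49.4% of all genes tested. Pcdh1, an adhesion protein of epithelial cells, was at 23.5, 12.7 and 19.2 FPKM in knockout replicates 1, 2 and 3, against 24.6, 19.0 and 18.4 FPKM in wild-type replicates 1, 2 and 3. Its groups overlapped, with a log2 difference of -0.18 (SE 0.24). Pcdh12, a protocadherin of endothelial cells, was the gene with the unadjusted p under 0.05, at 1.93, 0.683 and 0.660 FPKM in knockout replicates 1, 2 and 3, against 1.61, 3.99 and 2.44 FPKM in wild-type replicates 1, 2 and 3. Replicate 1 was near equal in both genotypes, and the log2 difference amounted to -0.82 (SE 0.32, limma adjusted p = 0.417). Pcdhga8 and Pcdhgc3, named so in the deposited table, belong to the gamma cluster, whose members share their last exons. The identifier listed as Pcdhga8 is Pcdhgc4 in GENCODE M21, and the split of reads among the cluster is uncertain. Pcdhga8 was at 5.54, 5.32 and 2.86 FPKM in knockout replicates 1, 2 and 3, against 5.82, 5.72 and 5.65 FPKM in wild-type replicates 1, 2 and 3. The groups did not overlap, with knockout replicates 1 and 2 just under the wild-type range, and the log2 difference was -0.31 (SE 0.22), or -0.066 without Arid1a_KO_DDC replicate 3. Pcdhgc3 was at 0.428 to 2.40 FPKM in knockout and 0.961 to 2.28 FPKM in wild-type libraries, with overlapping groups and a difference of -0.21 (SE 0.36).

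The remaining 4 members were not tested. Cdh17, the liver-intestine cadherin, was at 0.439, 0.213 and 0.229 FPKM in knockout replicates 1, 2 and 3, against 0.831, 0.991 and 1.41 FPKM in wild-type replicates 1, 2 and 3, and its groups did not overlap. Cdh13, a cadherin anchored to the membrane by a lipid, was at 0.129 to 1.06 FPKM in knockout and 0.484 to 0.699 FPKM in wild-type libraries. Cldn34c1 was at 0.287 to 1.10 FPKM in knockout and 0.326 to 0.708 FPKM in wild-type libraries. Gjc3, a connexin of glia, was at 0.221 to 0.587 FPKM in knockout and 0.0789 to 0.693 FPKM in wild-type libraries. No member was listed at 0 in any library.

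Partners of the junction proteins were read from lists of known genes, and 0 members of these lists passed over all genes by limma. In the adherens plaque list 10 genes were tested, with a median log2 difference of -0.23, and 4 had groups that did not overlap and were lower in knockout, beside 9.56% of all genes tested. These included Jup, plakoglobin, at 20.1 ± 3.22 FPKM in knockout and 28.7 ± 2.34 FPKM in wild-type livers (log2 difference -0.50, SE 0.16, limma adjusted p = 0.305). Ctnna1, alpha-catenin, had a difference of -0.39 (SE 0.14) and Ctnnb1, beta-catenin, of -0.28 (SE 0.15). Ctnnd1, p120 catenin, whose groups overlapped, had a difference of -0.26 (SE 0.19). The limma adjusted p-values of Ctnna1, Ctnnb1 and Ctnnd1 were 0.39, 0.568 and 0.672. Among 22 tested tight junction partners the median was -0.09, with 4 that did not overlap and were lower, beside 9.56% of all genes, and 2 that were higher, beside 7.09%. The higher count is near the background. Lsr, which organises tricellular contacts, was at 74.9 ± 10.5 FPKM in knockout and 122 ± 26.6 FPKM in wild-type livers (log2 difference -0.68, SE 0.20, limma adjusted p = 0.285). Cxadr, a junction protein used by adenoviruses, had a difference of -0.42 (SE 0.13), the scaffold gene Mpdz of 0.46 (SE 0.21) and Igsf5 of -0.25 (SE 0.13).

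Among 8 tested desmosome genes the median log2 difference was -0.13. Perp, a desmosomal membrane protein, was at 40.2, 27.5 and 30.1 FPKM in knockout replicates 1, 2 and 3, against 51.1, 52.8 and 52.7 FPKM in wild-type replicates 1, 2 and 3. The groups did not overlap, and its difference of -0.68 (SE 0.17) did not pass (limma adjusted p = 0.19). Dsp, desmoplakin, had a difference of -0.76 (SE 0.35), Pkp3 of 0.52 (SE 0.27) and Pkp4 of 0.28 (SE 0.15), the last 2 being plakophilins. The only pannexin in the table, Panx1, had a difference of 0.31 (SE 0.19).

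The brush border list was read for partners of Cdhr2 and Cdhr5, and its 8 tested genes had a median log2 difference of -0.36. Calml4, a light chain of the motor that carries the microvillar cadherins, was at 4.23, 3.57 and 0.578 FPKM in knockout replicates 1, 2 and 3, against 62.0, 21.5 and 19.5 FPKM in wild-type replicates 1, 2 and 3. All knockout libraries lay far below all wild-type libraries, and the difference of -3.20 (SE 0.59) did not pass over all genes (limma adjusted p = 0.0995). Myo7b, that motor, was at 1.05, 0.225 and 0.0891 FPKM in knockout replicates 1, 2 and 3, against 1.33, 1.21 and 1.88 FPKM in wild-type replicates 1, 2 and 3, with a difference of -0.81 (SE 0.27, limma adjusted p = 0.329). Both genes had non-overlapping groups and were lower in knockout, unlike Cdhr2. In the whole list of 8 tested genes 3 were lower without overlap, beside 9.56% of all genes tested, and 1 was higher, beside 7.09%. Anks4b, the scaffold of the same complex, was at 13.8, 15.9 and 17.1 FPKM in knockout replicates 1, 2 and 3, against 8.54, 9.74 and 13.5 FPKM in wild-type replicates 1, 2 and 3. Its groups did not overlap, and the difference was 0.54 (SE 0.19, limma adjusted p = 0.361). Ezr, ezrin of the microvillus core, had a difference of -0.45 (SE 0.17) and groups that did not overlap.

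**Figure D4:**
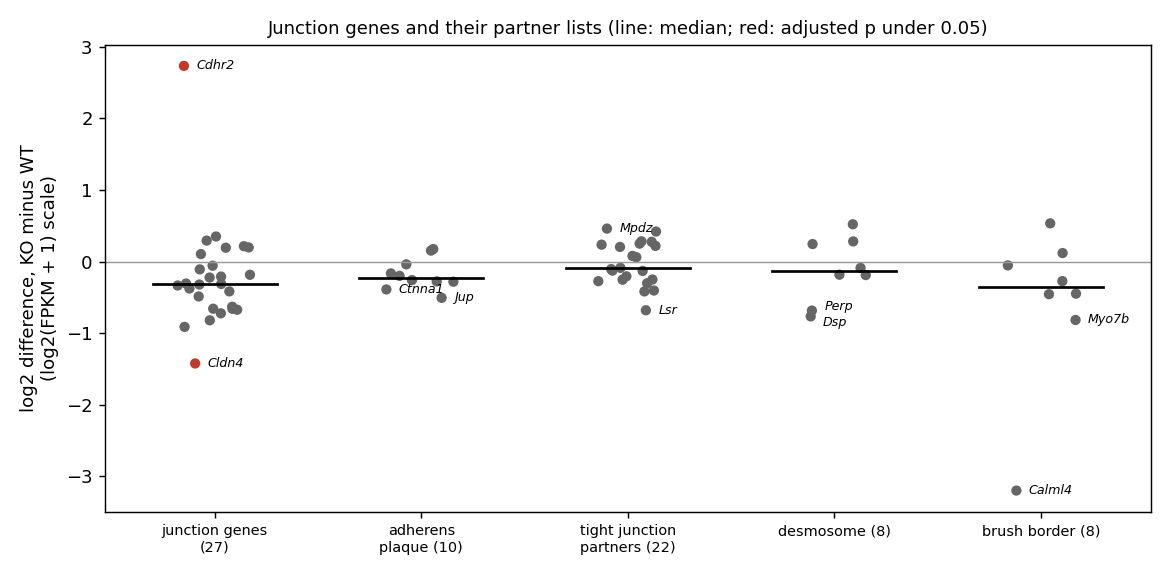
Log2 difference (Arid1a_KO_DDC minus WT_DDC, log2(FPKM + 1) scale) of the 27 tested junction genes and of tested genes in 4 partner lists, with 1 point per gene and a line at each median. Cdhr2 and Cldn4 are the points past the threshold, and Calml4 at -3.20 is the lowest point without passing it.

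Markers of the cell types in the liver were read beside these genes. For the biliary and progenitor markers, 11 of 16 were in the table and their summed level was 237 to 438 FPKM in knockout libraries, against 163 to 420 FPKM in wild-type libraries, most of it from Spp1. Of the 10 tested, 8 had a negative log2 difference, against 49.4% of all genes tested, with a median of -0.60. The keratin Krt23 alone passed as lower, beside 0.355% of all genes tested. Epcam, a defining marker of biliary epithelium, was at 3.40, 3.01 and 2.36 FPKM in knockout replicates 1, 2 and 3, against 4.06, 6.98 and 4.86 FPKM in wild-type replicates 1, 2 and 3. It was 1 of 3 biliary markers whose groups did not overlap, all lower in knockout, beside 9.56% of all genes tested. Those of Krt7 and Krt19 overlapped, and Spp1 (0.28, SE 0.48) and Prom1 (0.17, SE 0.75) had positive log2 differences. No biliary marker in the table was at 0 in any library, and the part of these cells in the values of Cldn4, Cldn6, Cldn7 and Cdh1 was not tested. The 15 hepatocyte markers were all in the table, and 1, the fatty acid binding protein gene Fabp1, passed as higher (log2 difference 1.69, SE 0.22, limma adjusted p = 0.0381), beside 0.135% of all genes tested. Their median difference was 0.10, with a summed level of 68848 to 85836 FPKM in knockout libraries, against 64141 to 67301 FPKM in wild-type libraries. The largest parts of this sum were Alb and Apoa2, whose groups overlapped. Of the 15 markers 5 had a negative difference, among them Cyp2e1 (-1.29, SE 0.52). The groups did not overlap for 3 that were higher, beside 7.09% of all genes tested. They did not overlap for 1 that was lower, Cyp3a11 (-0.60, SE 0.20), beside 9.56%. The median difference was -0.52 for the 15 tested stellate cell markers and -0.49 for the 11 tested macrophage markers. It was -0.36 for 9 B and plasma cell markers, -0.57 for 5 T and NK cell markers and 0.69 for 4 erythroid markers, and 0 markers of these 5 lists passed by limma. Macrophage markers summed to 453 to 694 FPKM in knockout libraries, against 774 to 917 FPKM in wild-type libraries. All 11 tested had a negative difference, against 49.4% of all genes tested. Erythroid markers summed to 337.5 to 535 FPKM in knockout libraries, against 240.3 to 308 FPKM in wild-type libraries. T and NK cell markers summed to 3.58 to 18.5 FPKM in knockout libraries, against 17.7 to 25.1 FPKM in wild-type libraries. B and plasma cell markers summed to 182 to 7868 FPKM in knockout libraries, against 1742 to 5734 FPKM in wild-type libraries. Arid1a_KO_DDC replicate 2 had the highest of these sums, and knockout replicates 1 and 3 the lowest. Stellate cell markers summed to 157 to 271 FPKM in knockout libraries, against 239 to 351 FPKM in wild-type libraries. The part of these cell types in the junction values was not tested.

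The genotype difference was also taken separately in replicate 1 and in replicates 2 and 3. Cdhr2 differed by 2.27 in replicate 1 and by 2.97 in replicates 2 and 3 on the log2 scale. The difference of Cdh1 was -0.47 in replicate 1 and -0.77 in replicates 2 and 3, and that of Cldn6 was -0.65 and -0.76. For Cdhr2, Cdh1 and Cldn6 the groups do not overlap, so the sign could not differ between these parts. Members that were positive in replicate 1 and negative in replicates 2 and 3 included Cldn7 (0.41 and -0.83), Gja1 (0.67 and -0.81) and Pcdh12 (0.16 and -1.31). As an interaction term in limma, the difference between both effects had an unadjusted p under 0.05 for 4 members, namely Tjp3 (1.40, SE 0.29), Pcdh12 (1.47, SE 0.40), Gja1 (1.48, SE 0.42) and Cldn14 (0.89, SE 0.30). None passed over all genes, the lowest limma adjusted p of a member being 0.413, and over all 11839 genes 0 passed, with 1072 at an unadjusted p under 0.05. Replicate 1 had 1 library per genotype, so this term rests on a single pair there.

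**Figure D5:**
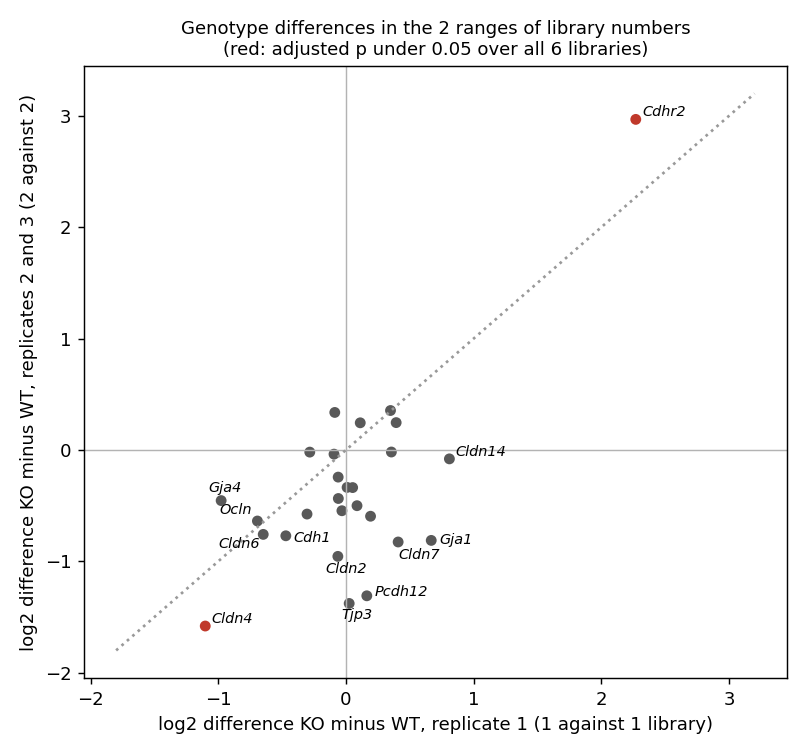
Log2 difference (Arid1a_KO_DDC minus WT_DDC) of the 27 tested junction genes in replicate 1 (x axis, 1 library against 1) and in replicates 2 and 3 (y axis, 2 libraries against 2). The dotted line marks equal differences. Cdhr2 and Cldn4 have groups that do not overlap, so their side of 0 is the same on both axes by necessity. Tjp3 is at 0.025 in replicate 1 and -1.38 in replicates 2 and 3.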

How the data were processed

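RNA-seq of total liver RNA was compared between 3 Arid1a_KO_DDC and 3 WT_DDC libraries, grouped by sample titles. As deposited by the authors, the data are FPKM on a log2 scale for 14499 genes. TopHat2 2.0.6, Cufflinks and the builds mm10 and GRCm38 are named in the submitters' processing notes. The sources used here do not give the gene annotation or the rule for the rows kept. An offset of 0.000977, checked on 60069 values (100% had 6 significant digits after its removal, within a relative tolerance of 3e-08), was subtracted to recover FPKM. Values at the lowest log2 value, -10, were set to an FPKM of 0 (3664 values, 0 among the members).

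Genes with at least 1 FPKM in at least 3 of the 6 libraries were tested as log2(FPKM + 1), which understates changes of low genes, with limma 3.58.1 in R 4.3.3 (eBayes with a trend, two-sided, Benjamini-Hochberg over 11839 genes, threshold 0.05). Errors are SD for FPKM and limma SE for log2 differences. An exact permutation test of 3 against 3 libraries cannot go below p = 0.1, so none is given. On data simulated for this comparison 11636 genes were tested. Of the genes changed, 61 of 100 changed by 1 log2 unit and 92 of 100 changed by 2 were recovered, and 5 of 158 calls were false. Low genes were simulated, but changes were placed only in genes above a set mean level, which Cdhr2 and Cldn4 do not reach. The recovery of low genes is therefore not shown.

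Members and lists were chosen with earlier results of these data known. Genes were named if they are junction genes known in liver, passed the threshold, had no overlap between groups, or were among the 5 highest members, with up to 4 per partner list by smallest p; a few others are named as flanking genes, markers or members with the lowest values. 1 member enters all counts and fits but is not reported here by name, and is left out of the plots that label each gene. Coordinates were read from GENCODE M21 (GRCm38) and promoter sequences from RefSeq. Alternatives were other pseudocounts, filters, scalings, eBayes settings, a replicate block, a library number term, replicates 2 and 3 alone and leaving out each library. Same-numbered libraries deviated together with correlations of 0.346, 0.133 and 0.0212 across genes, so the numbers were not taken to pair the libraries. Figures were drawn with matplotlib 3.10.9.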

Additional observations from a re-analysis of the deposited data

How the results depend on the processing

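The rise of Cdhr2 and the fall of Cldn4 had log2 differences of 1.24 to 4.44 and -1.72 to -0.82 under the alternatives that tested them. Since their groups do not overlap, no pseudocount, filter or choice of libraries could have turned their direction. Their calls did not always hold. The calls of 1 member higher and 1 lower became 0 and 0 with no filter and with a replicate block, 0 higher at a filter of 5 FPKM, where Cdhr2 was not tested, and 0 lower with a pseudocount of 5. With no filter the adjusted p was 0.0582 for Cdhr2 and 0.11 for Cldn4, and with the replicate block 0.0537 and 0.0851. Leaving out 1 library gave 0 to 1 members higher and 0 to 1 lower. Over all genes, calls were 16 higher and 42 lower, and became 5 and 7 with no filter and 0 and 0 with the replicate block, in which limma had 776 higher and 942 lower genes by unadjusted p (under 0.05). They were 33 higher with the library number term and 26 higher in replicates 2 and 3 alone, and leaving out 1 library gave 0 to 30 higher and 0 to 40 lower. The cause of these changes was not tested.

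Of the differences of the 27 tested members under the alternatives, 429 kept their sign and their side of the threshold, 13 lost the threshold (Cdhr2 and Cldn4) and 9 changed sign, all in members that had not passed. In replicates 2 and 3 alone Cldn14 was at -0.080 and Tjp1 at -0.019. With 1 library left out the range was -0.18 to 0.088 for Cdhr5, -0.18 to 0.43 for Cldn14, -0.69 to 0.038 for Cldn5, -0.37 to 0.051 for Pcdh1 and -0.57 to 0.055 for Pcdhgc3. The same range was -1.23 to -0.70 for Tjp3. The absolute depth is unknown, so no counting interval is given for low members such as Gjc3.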

Other observations

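Ratios within a library do not depend on its depth, and the pairs given here were chosen after their values were seen. The ratio of Cdh1 to Cdh2 was 1.19, 0.80 and 0.735 in knockout replicates 1, 2 and 3, against 1.36, 1.37 and 1.28 in wild-type replicates 1, 2 and 3. All knockout libraries were below all wild-type libraries, and E-cadherin was the less abundant of the pair per length in knockout replicates 2 and 3. The ratio of Cldn4 to its neighbour Cldn3 was 0.0193 ± 0.0015 in knockout and 0.0562 ± 0.00779 in wild-type livers (SD, n = 3 each), with groups that did not overlap. The ratio of Tjp3 to Tjp1 was 2.02, 2.05 and 1.36 in knockout replicates 1, 2 and 3, against 2.65, 5.06 and 4.09 in wild-type replicates 1, 2 and 3, again without overlap. The ratio of Gjb2 to Gjb1 was 0.240 ± 0.0326 in knockout and 0.228 ± 0.0595 in wild-type livers, and the groups overlapped.

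Tnfrsf12a, the receptor of the cytokine TWEAK, ends 1781 bases before Cldn6 and was the flanking gene with the largest negative log2 difference among those listed for Cdh1, Cdhr2, Cldn3, Cldn4 and Cldn6, apart from Cldn4 itself. Tnfrsf12a was at 95.5, 43.0 and 46.1 FPKM in knockout replicates 1, 2 and 3, against 93.8, 147 and 125 FPKM in wild-type replicates 1, 2 and 3. Replicate 1 was alike in both genotypes, and the difference was -1.05 (SE 0.33, limma adjusted p = 0.307).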
